A study of Homo sapiens with 10 samples.

Results

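A set of 10 genes of the interleukin 6 family and of the colony stimulating factors is described here over a parental ovarian cancer line and its resistant clones. They are the ligand genes IL6, LIF, IL11 and CLCF1, the receptor genes IL6R, LIFR and OSMR, and the growth factor genes CSF1, CSF2 and CSF3. These were identified by exact match of their symbols in the deposited table of counts per gene, where all 10 were found among 25370 genes, and 10 of 10 passed the filter on low counts. PEO1 is an established line from a high grade serous ovarian carcinoma that is deficient in BRCA2, a protein of DNA break repair, and every group here comes from it. The 2 libraries of the parental group carry the labels WT and Parental. The other 8 libraries are 2 each of ABTr1, ABTr2, ABTr3 and ABTr4, which are labelled resistant to veliparib, an inhibitor of the repair enzyme PARP. They had been held in 40 µM veliparib for 6 months and stood 4 to 5 days without it when RNA was collected, so a group is 1 clone of 1 line, and drug history and resistance cannot be told apart. Each group has a replicate 1 and a replicate 2, and with nothing in the labels on how cultures were kept apart, a p-value covers only library-to-library spread.

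Total counts were 20640602 to 55488566 per library, and 3 counts were worth 0.0545 to 0.145 CPM, the counts scaled to the size of the library. The labels call the cells epithelial. All 9 epithelial markers checked were detected, with summed levels of 9543 to 14606 CPM in parental and 2865 to 3664 CPM in clone libraries, and 7 of the 9 were lower in the clones. Of 12 leukocyte markers, 8 stayed under 1 CPM in every library and CD3D had 0 reads, and the sum was 41.5 to 53.8 CPM in parental and 74.5 to 147 CPM in clone libraries. Most of that sum was CD68, a lysosomal protein also made outside leukocytes, with a parental level of 32.6 ± 2.06 CPM (SD, n = 2 libraries) and a clone level of 98.1 ± 26.6 CPM (SD, n = 4 clones). Among fibroblast markers, 0 reads of DCN, LUM or COL3A1 were counted in any of the 10 libraries. The fibroblast sum was 99.2 to 179 CPM in parental and 141 to 205 CPM in clone libraries, with 1 of 5 tested markers higher, and the endothelial sum was 15.9 to 63.4 and 2.45 to 17.1 CPM, with 1 of 6 tested markers, CDH5, lower. That call ended without PEO1 replicate 2 (adjusted p = 0.16 by edgeR) and with the clone as unit (0.051), and the 6 markers had a median log2 change of 1.15, with 2 higher and 1 lower under the replicate block. Of all tested genes 7.17% passed as higher and 8.79% as lower, or 16.3% and 18.2% with the block. The part of these markers in the results was not tested. In RNA from whole cultures, fewer cells making a transcript and less of it per cell cannot be told apart.

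Cytokines of the interleukin 6 family bind a private receptor chain and then the shared chain IL6ST, which activates JAK kinases and the transcription factor STAT3. SOCS3, itself induced by STAT3, ends the signal. Interleukin 6 and leukemia inhibitory factor are secreted by many ovarian carcinomas, and oncostatin M, LIF and CLCF1 reach IL6ST through OSMR, LIFR or the CNTF receptor. The colony stimulating factors are named for their action on blood cell precursors: CSF1 sustains macrophages, CSF2 (GM-CSF) acts on granulocytes and macrophages, and CSF3 (G-CSF) on neutrophils. In stimulated cells, IL6, CSF2 and CSF3 are induced through NF-kB and related factors, and their short-lived transcripts carry AU-rich elements that recruit decay proteins such as ZFP36.

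The promoter stretches of CSF2 and IL6 are shown because CSF2 had the largest change of the 10 genes and IL6 the largest ratio between clones, with clone means of 6.89 to 47.2 CPM. They come from RefSeq, build GRCh38.p14, and run 5′ to 3′ on the plus strand, which is the strand of both genes. Of the 10 genes, 6 were matched in that promoter table. Capitals mark matches, on either strand, to the NF-kB pattern (GGG, any 5 bases, CC), the C/EBP pattern TTGCNNAA, the CRE pattern TGACGT or the STAT pattern TTCNNNGAA.
CSF2, chr5:132073539-132073788: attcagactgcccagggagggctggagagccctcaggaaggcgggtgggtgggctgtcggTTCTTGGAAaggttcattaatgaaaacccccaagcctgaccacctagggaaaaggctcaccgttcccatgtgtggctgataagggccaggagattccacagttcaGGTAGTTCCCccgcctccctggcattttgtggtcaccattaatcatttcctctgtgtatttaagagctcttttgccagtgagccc
IL6, chr7:22726950-22727146: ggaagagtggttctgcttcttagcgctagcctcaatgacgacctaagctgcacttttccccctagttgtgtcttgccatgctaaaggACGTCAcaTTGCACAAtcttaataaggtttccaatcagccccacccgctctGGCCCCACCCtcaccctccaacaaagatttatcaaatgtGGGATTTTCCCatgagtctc

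The CSF2 stretch holds the 250 bases before the annotated start. Its NF-kB match begins 85 bases before the start on the minus strand, and its STAT match 190 bases before. The IL6 stretch holds 197 bases, and the 53 bases next to the start were left out because an annotated exon covers them. In IL6 the NF-kB pattern was met at 73 and 72 bases before the start by overlapping matches on both strands, and at 112 bases. A C/EBP match stood at 155 and a CRE match at 163 bases before the start. Neither stretch held the AP-1 pattern TGANTCA, and of the 8 windows of the 6 matched genes only that of IL11 did, at 96 bases. The NF-kB pattern is loose: among 35116 promoter windows of 250 bases it was found in 54.4%, against 9.05% for C/EBP, 7.10% for CRE, 6.57% for AP-1 and 6.57% for STAT. A match describes letters in these windows and not binding.

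Across the 10 genes, 2 differed between the mean of the 4 clones and parental cells. CSF2 rose and CLCF1 fell, each in the mean and in each clone, with edgeR at an adjusted p under 0.05 over 16490 tested genes. The background is wide, since 16% of all tested genes passed in the mean comparison, 7.17% higher and 8.79% lower, and 4.18% passed in the same direction in each of the 4 clones (2.08% as higher and 2.1% as lower). Against parental cells, 2 of the 10 genes passed in ABTr1 (9.77% of all genes), 2 in ABTr2 (6.11%), 3 in ABTr3 (7.37%) and 2 in ABTr4 (9.71%). The median log2 change of the 10 genes was 0.26, beside 0.02 over all tested genes. Libraries of the same replicate number deviated together, and a second fit took that number as a block. Replicate 1 had the larger total count in every group, so replicate number and sequencing depth cannot be told apart. With the block 5 of the 10 passed, namely CLCF1, IL6R, CSF1, CSF2 and CSF3, where 34.6% of all genes passed. By clone the block gave 3 in ABTr1 (30.1%), 4 in ABTr2 (22.1%), 7 in ABTr3 (22.6%) and 4 in ABTr4 (27%). Groups that did not overlap were seen for 3 of the 10 genes, beside 27% of all genes. The clone and parental libraries did not overlap for CSF2 and CSF3, which were higher in the clones (14.5% of all genes), and for CLCF1, which was lower (12.5%).

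**Figure D1:**
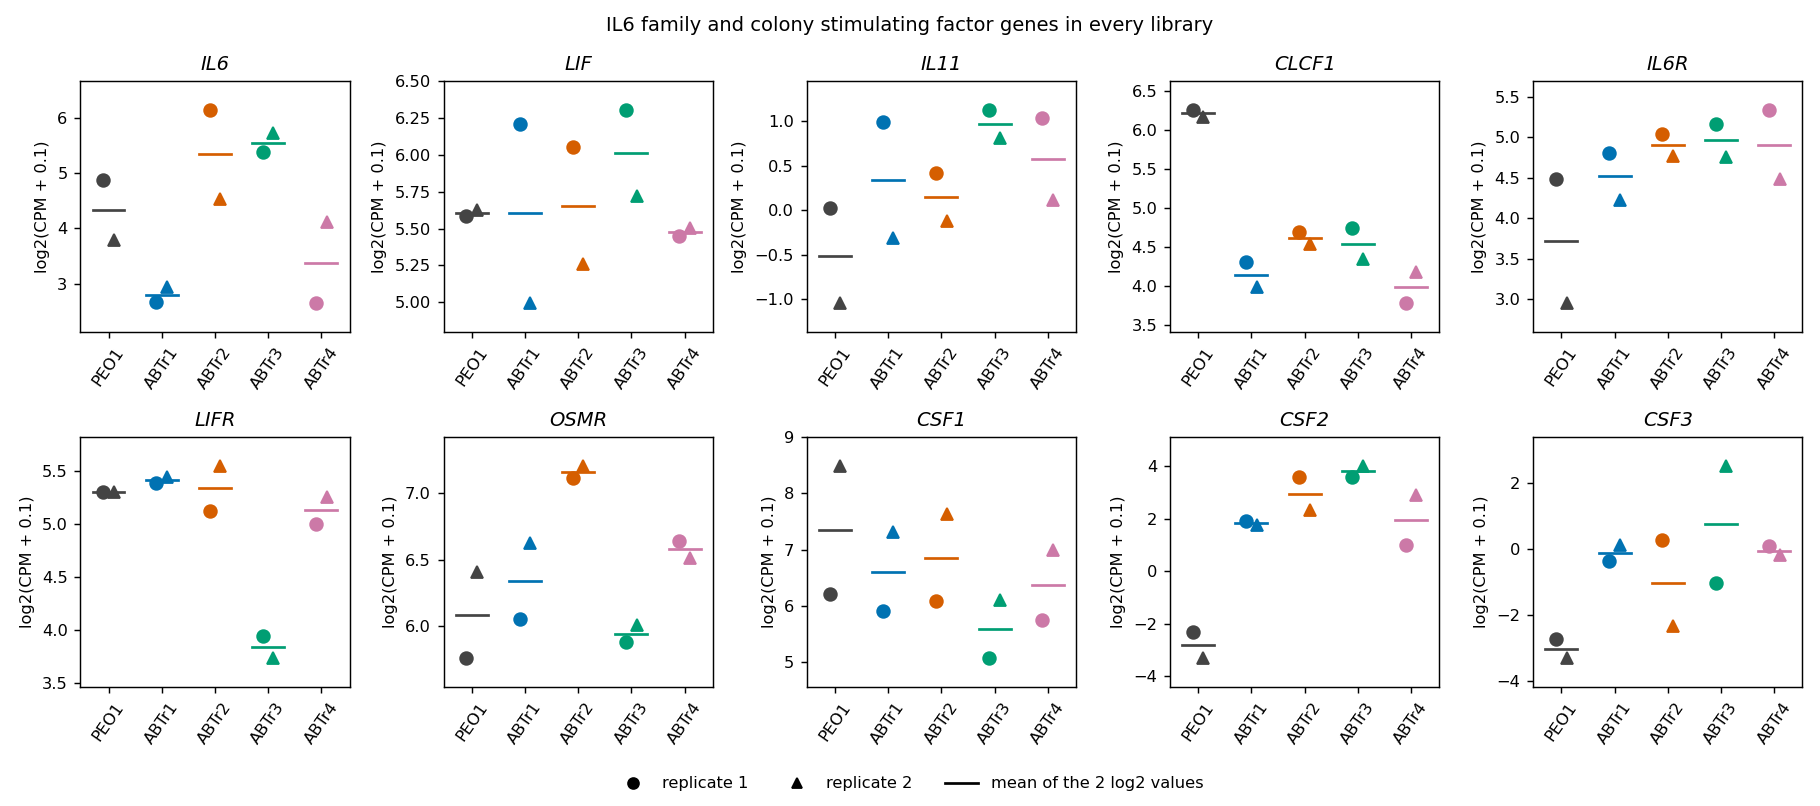
Level of each of the 10 genes as log2(CPM + 0.1) in the 10 libraries, by group, with circles for replicate 1, triangles for replicate 2 and a line at the mean of the 2 log2 values; the vertical axes differ between panels. Parental CSF2 and CSF3 lie under all 8 clone libraries, parental CLCF1 lies above all 8, and LIFR is lowest in both ABTr3 libraries.

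Among the ligands, CLCF1 fell by 3.71-fold in the mean of the clones while IL6, LIF and IL11 did not pass. CLCF1 (hg19 chromosome 11, 67131639 to 67141648, minus strand) encodes a ligand that acts through the CNTF receptor, LIFR and IL6ST. It stood at 76.6 and 71.9 CPM in the parental libraries. In replicates 1 and 2 it stood at 19.7 and 15.8 CPM in ABTr1, 25.7 and 23.1 in ABTr2, 26.6 and 20.2 in ABTr3 and 13.7 and 18.1 in ABTr4. Every clone library was below both parental libraries, and the parental pair differed by only 1.06-fold. In the mean, the log2 change was -1.89 (SE 0.19, adjusted p = 5.7e-04 by edgeR), and CLCF1 passed in all 15 alternative settings of that comparison. Clone log2 changes were -2.07 (SE 0.27) in ABTr1, -1.60 (SE 0.27) in ABTr2, -1.66 (SE 0.27) in ABTr3 and -2.22 (SE 0.27) in ABTr4. Their edgeR adjusted p-values were 0.0056, 0.014, 0.012 and 0.0037. In a fit of only ABTr2 and parental libraries the ABTr2 call ended, where 78 of 15648 tested genes passed. With 1 library left out the adjusted p reached 0.056, 0.074 and 0.11 in ABTr1, ABTr2 and ABTr3, and 0.033 in ABTr4. The ABTr1 call ended without ABTr1 replicate 2, the ABTr2 call without PEO1 replicate 2 or either ABTr2 library, and the ABTr3 call without either ABTr3 library. Leaving out a library leaves 1 group with 1 library. With a library of a clone left out, fewer of all genes passed in the comparison of that clone. Without PEO1 replicate 2, fewer passed in every comparison with parental cells. A call that ended in such a fit, here or below, is therefore not particular to the gene.

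IL6 (chromosome 7, 22766766 to 22771621, plus strand) was spread widely among the clones and was not apart from parental cells in their mean. The parental libraries had 29.2 and 13.8 CPM. Replicates 1 and 2 had 6.22 and 7.57 CPM in ABTr1, 71.0 and 23.1 in ABTr2, 41.7 and 52.8 in ABTr3, and 6.17 and 17.2 in ABTr4. Both ABTr3 libraries lay above and both ABTr1 libraries below the parental pair, and ABTr2 and ABTr4 overlapped it. In the mean, the log2 change was -0.07 (SE 0.49, 95% interval -1.18 to 1.05, adjusted p = 0.95 by edgeR), so a change of about 2-fold in either direction was not detectable. By clone it was -1.64 (SE 0.64) in ABTr1, 1.13 (SE 0.63) in ABTr2, 1.13 (SE 0.63) in ABTr3 and -0.88 (SE 0.63) in ABTr4, and the smallest edgeR adjusted p was 0.14, in ABTr1.

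LIF (chromosome 22, 30636436 to 30642840, minus strand), a ligand of LIFR and IL6ST, passed neither in the mean nor in any clone. The parental libraries had 48.0 and 49.2 CPM, the clone libraries ran from 31.8 to 78.9 CPM, and only ABTr3 had both libraries above parental and only ABTr4 both below. Its log2 change was 0.13 (SE 0.34, 95% interval -0.63 to 0.90, adjusted p = 0.83 by edgeR). IL11 (chromosome 19, 55875750 to 55881831, minus strand), a ligand of IL11RA known from tissue fibrosis, was scarce. It had 0.917 and 0.387 CPM in parental libraries and 0.708 to 2.09 CPM in clone libraries. Each of the 8 clone libraries exceeded the parental library with its number, as for 21% of all genes, though ABTr1 replicate 2 and ABTr2 replicate 2 were under PEO1 replicate 1. On the log2 scale the change was 1.07 (SE 0.56, adjusted p = 0.24 by edgeR), or 1.11 (SE 0.39, adjusted p = 0.051 by edgeR) with the block. IL11 passed with the block in ABTr3 alone (log2 change 1.61, SE 0.47, adjusted p = 0.033 by edgeR).

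Among the receptor chains, LIFR, the receptor of LIF, fell in ABTr3, and none of IL6R, LIFR and OSMR passed in the mean of the clones without the block. IL6R (chromosome 1, 154377669 to 154441926, plus strand), the private chain of interleukin 6, had 22.3 and 7.66 CPM in parental libraries. The clone libraries had 27.9, 32.9, 35.8 and 40.4 CPM in replicate 1 and 18.7, 27.2, 27.0 and 22.3 CPM in replicate 2, in the order ABTr1 to ABTr4. Each exceeded the parental library with its number, and ABTr1 replicate 2 and ABTr4 replicate 2 were not above PEO1 replicate 1. The log2 change was 0.94 (SE 0.42, adjusted p = 0.17 by edgeR) without and 1.05 (SE 0.25, adjusted p = 0.0090 by edgeR) with the block. By clone the block called IL6R in ABTr2 (1.14), ABTr3 (1.19) and ABTr4 (1.13), with edgeR adjusted p-values of 0.021, 0.017 and 0.017, and not in ABTr1 (0.74, adjusted p = 0.082 by edgeR). In the mean without the block it was 1.87 without PEO1 replicate 1, when IL6R passed (adjusted p = 0.040 by edgeR), and 0.36 without PEO1 replicate 2.

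LIFR (chromosome 5, 38475065 to 38595507, minus strand) had 39.5 and 39.4 CPM in parental libraries. In replicates 1 and 2 it had 41.9 and 43.4 CPM in ABTr1, 34.8 and 46.9 in ABTr2, 15.3 and 13.2 in ABTr3, and 32.0 and 38.0 in ABTr4. Both ABTr3 libraries were below every other library. ABTr3 differed from parental cells by a log2 change of -1.47 (SE 0.25, adjusted p = 0.014 by edgeR), a fall of 2.77-fold, where 7.37% of all genes passed in ABTr3. The adjusted p was 0.0012 with the block and lay between 0.013 and 0.12 with 1 library left out. The call ended in a fit of only ABTr3 and parental libraries (adjusted p = 0.052 by edgeR), where 659 of 15755 tested genes passed. It also ended without PEO1 replicate 2 and without either ABTr3 library, with log2 changes of -1.58 to -1.37 over the libraries left out. DESeq2 called LIFR in ABTr3 (adjusted p = 8.1e-07), where it called 2526 of 16490 tested genes. In ABTr1, ABTr2 and ABTr4 the log2 changes were 0.11 (SE 0.24), 0.05 (SE 0.24) and -0.17 (SE 0.24).

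OSMR (chromosome 5, 38845960 to 38935743, plus strand), the private chain of oncostatin M, has its lowest coordinate 370.9 kb from that of LIFR. It had 54.0 and 84.7 CPM in parental libraries, 66.2 and 98.7 in ABTr1, 138.6 and 147.8 in ABTr2, 58.7 and 64.2 in ABTr3 and 99.9 and 91.0 in ABTr4. ABTr2 stood above all other libraries. Its log2 change against parental cells was 1.05 (SE 0.29, adjusted p = 0.070 by edgeR), and 1.07 (SE 0.22, adjusted p = 0.0079 by edgeR) with the block, where 22.1% of all genes passed in ABTr2. DESeq2 also called OSMR in ABTr2 (adjusted p = 0.019), where it called 2488 of 16490 tested genes. The mean of the clones was at 0.40 (SE 0.23, adjusted p = 0.29 by edgeR).

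**Figure D2:**
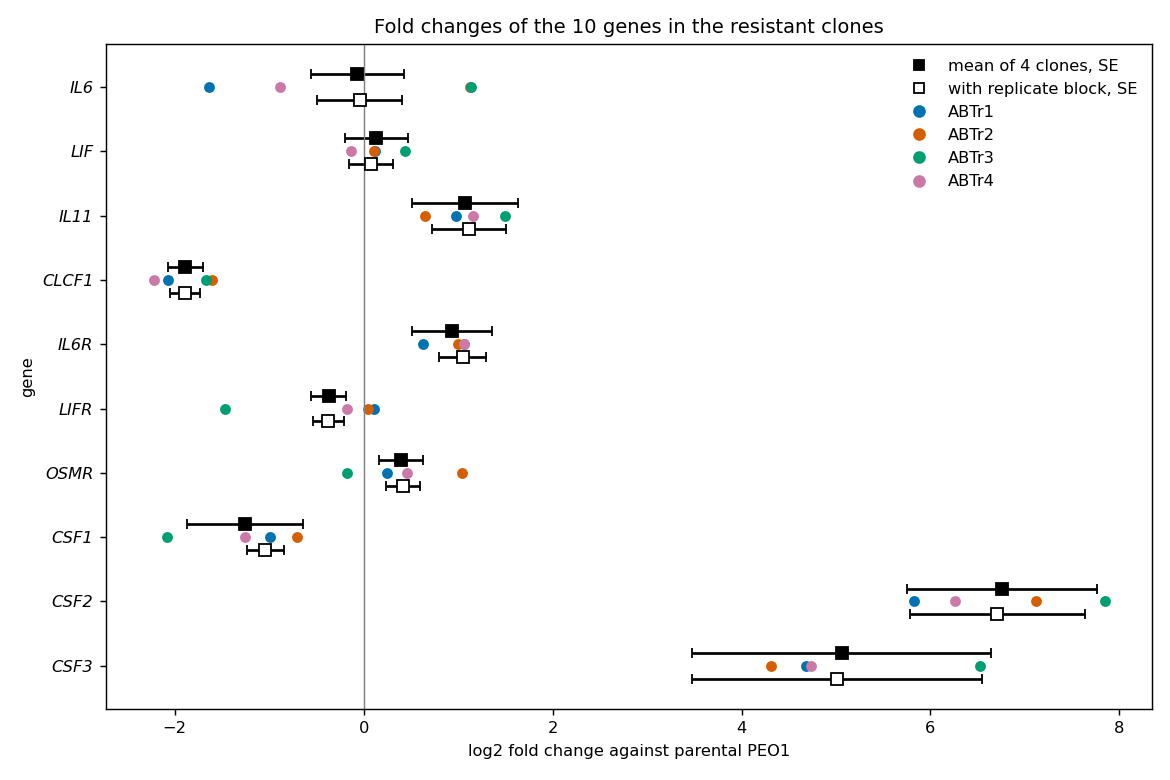
Log2 change of each gene against parental PEO1: black squares give the mean of the 4 clones and open squares the same with the replicate block, both with bars of 1 SE, and coloured circles give each clone. CSF2 lies at 5.82 to 7.85 in the 4 clones and CLCF1 at -2.22 to -1.60, while the clones stand on both sides of 0 for IL6, LIF, LIFR and OSMR.

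Among the colony stimulating factors, CSF2 went from at most 4 reads in a parental library to 88 to 654 reads in a clone library. CSF2 (chromosome 5, 131409485 to 131411863, plus strand) had 0.0992 and 0 CPM in parental cells. In replicates 1 and 2 it had 3.65 and 3.26 CPM in ABTr1, 11.9 and 4.98 in ABTr2, 11.9 and 16.2 in ABTr3, and 1.89 and 7.48 in ABTr4. All 8 clone libraries were above both parental libraries. Over the groups, 4 parental reads stood against 2495 clone reads, a depth-scaled ratio of 134 (95% counting interval 52.2 to 491), which covers counting error only. In the mean, the log2 change was 6.76 (SE 1.00, adjusted p = 0.0033 by edgeR), and CSF2 passed in all 15 alternatives. Leaving out PEO1 replicate 1, so that 0 parental reads were left, gave 10.94, and leaving out PEO1 replicate 2 gave 6.01. In fits of only the 2 compared groups CSF2 passed in ABTr1 (699 of 15602 tested genes passed) and ABTr3 (659 of 15755). It did not pass in ABTr2 (78 of 15648) or ABTr4 (447 of 15639). With all groups in the fit, the edgeR adjusted p was 0.015 in ABTr1, 0.0094 in ABTr2, 0.0067 in ABTr3 and 0.010 in ABTr4. With 1 library left out it reached 0.065 in ABTr1, 0.052 in ABTr2, 0.053 in ABTr3 and 0.0496 in ABTr4. The ABTr1 call ended without PEO1 replicate 2 or either ABTr1 library, the ABTr2 call without PEO1 replicate 2, and the ABTr3 call without ABTr3 replicate 2.

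CSF3 (chromosome 17, 38171614 to 38174066, plus strand) shared the low parental level but stayed scarcer. It had 2 reads in PEO1 replicate 1 and 0 in PEO1 replicate 2, or 0.0496 and 0 CPM. The clone libraries had 0.679 and 0.984 CPM in ABTr1, 1.11 and 0.0966 in ABTr2, 0.383 and 5.61 in ABTr3 and 0.947 and 0.770 in ABTr4. All 8 were above both parental libraries, but the ABTr2 replicate 2 value is 2 reads, the same number as in PEO1 replicate 1. The ratio of 398 clone reads to 2 parental reads was 42.7 (95% counting interval 11.7 to 354). The log2 change of 5.06 (SE 1.58) missed the threshold (adjusted p = 0.062 by edgeR), and CSF3 passed with the block (adjusted p = 0.029 by edgeR), with DESeq2 (adjusted p = 0.0021, where 24.7% of all genes passed) and in 6 of 15 alternatives in all. With 1 library left out the log2 change ran from 4.33 (without ABTr3 replicate 2) to 8.33 (without PEO1 replicate 1). Without PEO1 replicate 1, 0 parental reads were left, so the size of that value does not measure a ratio. By clone CSF3 was nearest the threshold in ABTr3 (log2 change 6.52, SE 1.71, adjusted p = 0.056 by edgeR), where it passed with the block (adjusted p = 0.022 by edgeR). The ABTr3 change was 3.57 without ABTr3 replicate 2 and 9.78 without PEO1 replicate 1, again with 0 parental reads left. DESeq2 called CSF3 in each clone, with adjusted p-values of 0.018, 0.043, 6.0e-04 and 0.017 in ABTr1 to ABTr4. In these comparisons DESeq2 called 2488 to 3175 of 16490 tested genes.

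CSF1 (chromosome 1, 110453233 to 110473616, plus strand), the macrophage growth factor, differed widely between replicate numbers. The parental libraries had 74.3 and 361 CPM. Replicates 1 and 2 had 60.0 and 159 CPM in ABTr1, 67.7 and 199 in ABTr2, 33.5 and 69.0 in ABTr3 and 53.5 and 128 in ABTr4. Replicate 2 was the higher library in 5 of 5 groups, by 2.06- to 4.85-fold, as it was for 19.1% of all genes. Each clone library fell short of the parental library with its number, as for 19.2% of all genes, yet the groups overlapped. The log2 change was -1.26 (SE 0.61, adjusted p = 0.20 by edgeR), and with the block it was -1.04 (SE 0.20, adjusted p = 0.0027 by edgeR), a fall of 2.06-fold. By clone the block called CSF1 in ABTr1 (-0.80), ABTr3 (-1.80) and ABTr4 (-1.03), with edgeR adjusted p-values of 0.045, 0.0015 and 0.018, and not in ABTr2 (-0.55, adjusted p = 0.17 by edgeR). In the mean without the block, leaving out PEO1 replicate 2 gave 0.28 and leaving out PEO1 replicate 1 gave -2.03. IL6R and IL11 had the opposite order, with replicate 2 below replicate 1 in 5 of 5 groups, as for 18.2% of all genes.

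On the scale of CPM per kilobase of the deposited gene length, the order of the levels changed between parental cells and clones. In parental cells CSF1 was the most abundant at 44.2 CPM per kb, followed by CLCF1 at 37.6, IL6 at 18.2, LIF at 12.2 and OSMR at 11.3. The place of CSF1 rests on PEO1 replicate 2, with 73.4 CPM per kb, since in PEO1 replicate 1 it had 15.1, below CLCF1 at 38.8 and IL6 at 24.7. In the clones IL6 stood at 23.8, CSF1 at 19.6, OSMR at 15.6, LIF at 13.6, CLCF1 at 10.3 and CSF2 at 9.76 CPM per kb. CSF2 had 0.0632 CPM per kb in parental cells, and its clone mean covers clones at 3.45 to 14.1 CPM. LIFR went from 3.79 to 3.19, IL6R from 2.29 to 4.42, IL11 from 0.274 to 0.596 and CSF3 from 0.0140 to 0.748 CPM per kb. For IL6 the clone mean covers clones at 47.1 and 47.2 CPM and clones at 6.89 and 11.7 CPM, so its place in the order is not that of each clone.

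Differences among the clones were tested in 1 step for each gene. By edgeR, 0 of the 10 genes passed at the adjusted threshold, where 0.00606% of all genes did. The unadjusted p was under 0.05 for IL6, LIFR and OSMR, and the share of all genes at that cut was not computed. Adjusted p-values of edgeR were 0.50 for LIFR, 0.63 for IL6 and 0.80 for OSMR. With the block LIFR alone passed (adjusted p = 0.029 by edgeR, where 0.843% of all genes passed), and OSMR and IL6 were at 0.072 and 0.077. DESeq2 called LIFR (adjusted p = 5.4e-06) and IL6 (adjusted p = 0.0019), where it called 1.72% of all genes. By limma-voom 0 of the 10 passed, as did 0 of all 16490 tested genes. Against the mean of the other 3 clones, LIFR in ABTr3 had a log2 change of -1.47 (SE 0.22, adjusted p = 0.34 by edgeR), and with the block -1.46 (SE 0.19, adjusted p = 0.017 by edgeR, where 0.206% of all genes passed). DESeq2 gave LIFR an adjusted p of 5.4e-08 there, where it called 73 of 16490 tested genes. IL6 in ABTr1 had a log2 change of -2.10 (SE 0.58, adjusted p = 0.44 by edgeR). Its adjusted p was 0.065 by edgeR with the block (2.97% of all genes passed there) and 0.013 with DESeq2 (1.12%). Without the block, the share of all genes that passed in such a comparison was 0.0121% in ABTr1 and 0% in the other clones. CSF2 was highest in ABTr3 and lowest in ABTr1, but its difference among clones did not pass (adjusted p = 0.96 by edgeR, and 0.21 with the block).

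Over the 8 clone libraries, IL6 and CSF2 varied together. Pearson's r of their log2 levels was 0.93 over those 8 libraries and 0.44 over all 10, where the parental libraries have IL6 but almost no CSF2. The 8 points share clones and replicate numbers and are given as a description. That 0.93 was the highest positive r over the 8 libraries among all pairs of the 10 genes, and IL6 and CLCF1 had 0.79. How many pairs of other genes reach such an r was not computed. IL11 and CSF1, which had opposite orders between replicate numbers, had an r of -0.93 over 10 libraries. By the same measure over 10 libraries and among tested genes of at least 1 CPM, the genes most like CSF2 were CBR3-AS1 (0.96), DKK1 (0.95) and LINC00632 (0.95). The genes most like CLCF1 were OVOL2 (0.97), ZNF600 (0.97) and SPECC1 (0.97). Those most like IL6 were PLK2 (0.94), ABO (0.87) and MPC1 (0.86), and those most like LIFR were SNAPC3 (0.92), ST3GAL4 (0.91) and GALC (0.90). CBR3-AS1 is an antisense transcript, and its reads cannot be told from those of an overlapping gene without strand.

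CSF2 rose in a stretch of chromosome 5 where some of the other genes fell. For the distances given here, the start of a gene is its lowest coordinate, whatever its strand. Of 23 tested genes that start within 1 Mb of CSF2, 11 were lower in the mean of the clones and 0 were higher, where 8.79% and 7.17% of all genes were. Their median log2 change was -0.80, beside 0.02 over all tested genes. In ABTr1 to ABTr4, 4, 1, 3 and 3 were lower, beside 708, 463, 642 and 866 of all 16490 tested genes. One of the 11 was IRF1, an interferon response transcription factor gene 407.8 kb away, with a log2 change of -1.51 (SE 0.32, adjusted p = 0.016 by edgeR). IL3, the cytokine gene 13.1 kb from CSF2, had 1 read in all 10 libraries, and the neighbouring cytokine gene IL5 also had 1 (both named after their values were seen). Around LIFR, 0 of 7 tested neighbours were lower in ABTr3 (3.89% of all genes), and OSMR among them had a log2 change of -0.17 (SE 0.29) there. Around CLCF1, 11 of 51 tested neighbours were lower and 0 higher, with a median of -0.35. IL11 had 6 of 43 lower and 0 higher (median -0.50), and CSF1 had 7 of 31 lower and 2 higher (median -0.29). IL6R had 2 of 62 lower and 4 higher (median -0.03).

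**Figure D3:**
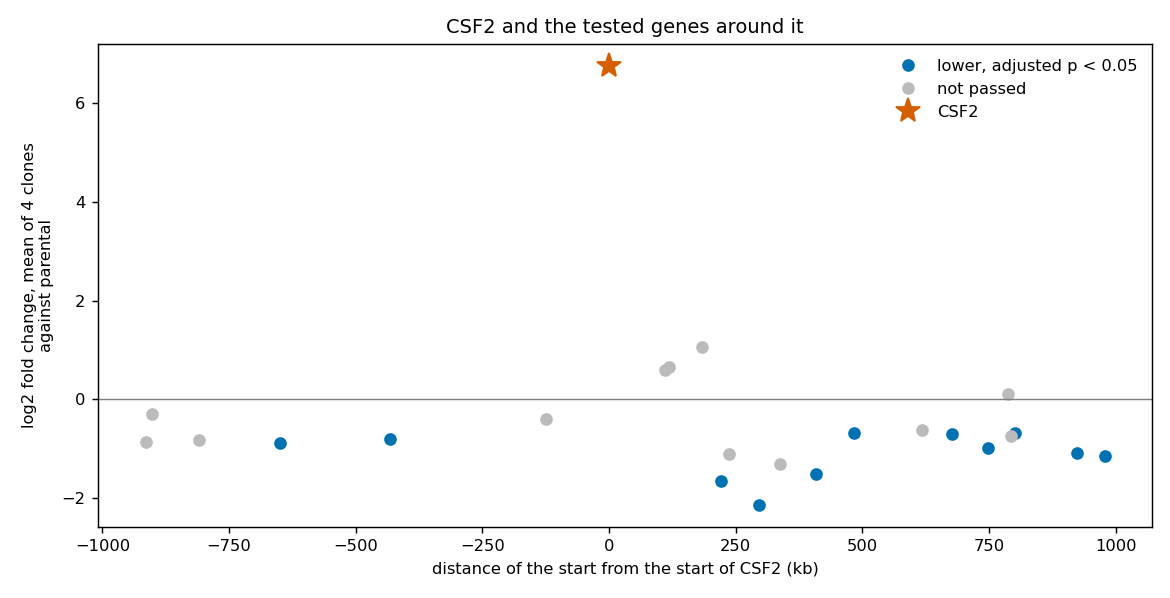
Log2 change, mean of the 4 clones against parental, of the 23 tested genes that start within 1 Mb of CSF2, by distance of their start (lowest coordinate) from that of CSF2 in kb. The star is CSF2 and blue points passed as lower. CSF2 stands at 6.76, and 11 neighbours passed as lower and 0 as higher.

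Among the other ligands of the interleukin 6 family, EBI3 rose. Of 11 ligand genes, 7 were tested, and 1 passed as higher and 1, CLCF1, as lower, beside 7.17% and 8.79% of all genes. Their median log2 change was 0.52, the same with EBI3 at its lower bound. EBI3, the beta subunit of interleukins 27 and 35, had 0 parental reads and 120 clone reads, at least 8.58-fold higher taking 3 counts for the parental group (adjusted p = 0.038 by edgeR). That call ended without either parental library or without 1 of 4 clone libraries, with an adjusted p by edgeR of up to 0.14. OSM, the oncostatin M gene, had 0 parental and 11 clone reads and was not tested. CTF1, the cardiotrophin 1 gene, named after its values were seen, was at 1.39 and 2.86 CPM in parental and 4.00 to 18.7 CPM in clone libraries, which did not overlap. Its log2 change was 2.17 (SE 0.65, adjusted p = 0.054 by edgeR), and it passed with the block (adjusted p = 2.9e-04 by edgeR).

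Of 8 receptor genes of the family 7 were tested, and 0 passed in either direction by edgeR, with a median log2 change of 0.23. With the block 2 passed as higher, beside 16.3% of all genes. They were IL6R and IL31RA, a receptor chain of interleukin 31 named after its values were seen (adjusted p = 0.030 by edgeR with the block and 0.080 without). The shared chain IL6ST stood at 316 ± 108 CPM in the parental and 290 ± 33.1 CPM in the resistant groups (log2 change -0.13, SE 0.25, adjusted p = 0.77 by edgeR). IL11RA was at 1.53 ± 0.0248 and 1.83 ± 0.345 CPM.

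The receptors of CSF2 and CSF3 were at or near 0. CSF2RA, CSF2RB and CSF3R had 0 parental reads and at most 2 reads in any clone library. CSF1R, the receptor of CSF1, stood at 0.170 ± 0.0757 CPM in the parental and 0.351 ± 0.0702 CPM in the resistant groups (log2 change 0.99, SE 0.56, adjusted p = 0.27 by edgeR). IL34, the other ligand of CSF1R, fell from 2.65 and 6.15 CPM in parental libraries to 0.461 to 1.82 CPM in clone libraries, which did not overlap. Its log2 change was -2.38 (SE 0.44, adjusted p = 0.0089 by edgeR), and without PEO1 replicate 2 it was -1.65 with an adjusted p by edgeR of 0.13. Of this list of 12 genes 5 were tested, with 1 higher, CSF2, and 1 lower, IL34, beside 7.17% and 8.79% of all genes.

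**Figure D4:**
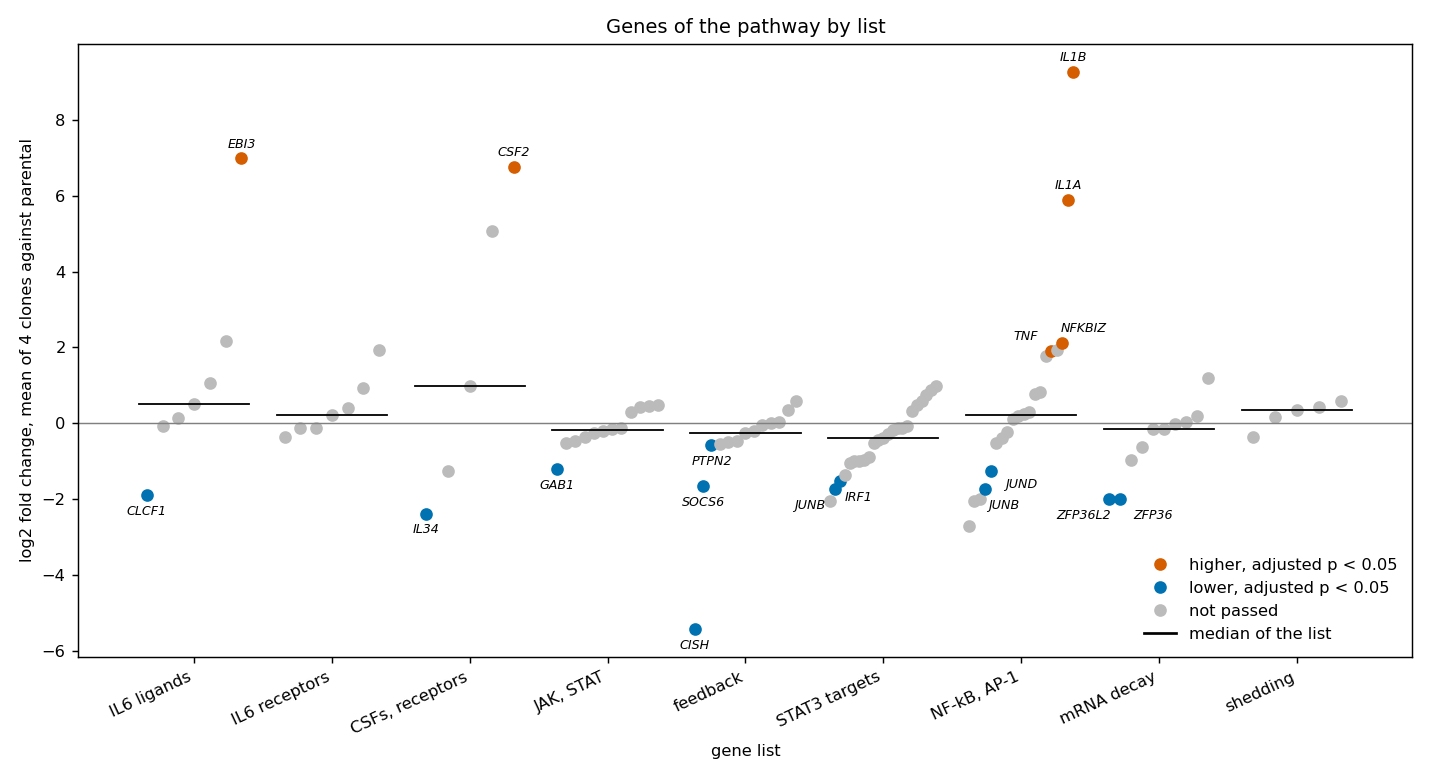
Log2 change, mean of the 4 clones against parental, of every tested gene on 9 lists of the pathway, with orange for genes that passed as higher, blue for lower and a line at the median of each list. The genes that passed are named, JUNB on 2 lists, and the median of all tested genes is 0.02.

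Beside 7.17% and 8.79% of all genes, 0 of 12 JAK and STAT transducer genes rose and 1 fell (median log2 change -0.18). That gene was GAB1, an adaptor of receptor signals, which went from 23.4 ± 8.26 to 10.3 ± 1.57 CPM (log2 change -1.20, SE 0.23, adjusted p = 0.011 by edgeR) and was at -0.79 with an adjusted p of 0.14 without PEO1 replicate 2. JAK1 and STAT3 had log2 changes of -0.25 (SE 0.20) and -0.13 (SE 0.22). Of 13 feedback inhibitors, 0 rose and 3 fell (median -0.25), beside 7.17% and 8.79% of all genes. CISH, a SOCS family inhibitor induced by STAT5, fell from 15.4 and 80.4 CPM in parental libraries to 0.493 to 1.53 CPM in clone libraries. Its log2 change of -5.41 (SE 0.44, adjusted p = 2.7e-04 by edgeR) passed in all 15 alternatives and ran from -6.20 to -3.79 over them. SOCS6 fell by 1.66 (SE 0.24, adjusted p = 0.0029 by edgeR) and the phosphatase gene PTPN2 by 0.57 (SE 0.16, adjusted p = 0.045 by edgeR) on the log2 scale, and PTPN2 passed in only 3 of 15 alternatives. SOCS3, the feedback inhibitor of IL6ST, was at 24.4 ± 4.78 and 36.7 ± 5.47 CPM (log2 change 0.58, SE 0.27, adjusted p = 0.18 by edgeR).

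Of 23 tested STAT3 target genes, 0 rose and 2 fell, with a median log2 change of -0.39, and with the block 1 rose and 8 fell. Over all genes 7.17% rose and 8.79% fell, or 16.3% and 18.2% with the block. The 2 were IRF1 and JUNB, an AP-1 subunit at 463 ± 249 and 146 ± 46.1 CPM (log2 change -1.72, SE 0.39, adjusted p = 0.019 by edgeR). Without PEO1 replicate 2 both stood at -1.04, with edgeR adjusted p-values of 0.19 and 0.25. Of 20 NF-kB and AP-1 factors and their inducers, 4 rose and 2 fell (median 0.22), beside 7.17% and 8.79% of all genes, and 7 rose and 5 fell with the block, beside 16.3% and 18.2%. The 4 were IL1A and IL1B, cytokines that activate NF-kB, TNF, another such cytokine, and NFKBIZ, a cofactor of NF-kB at cytokine genes. TNF went from 10.8 ± 5.47 to 42.0 ± 13.2 CPM (log2 change 1.90, SE 0.38, adjusted p = 0.012 by edgeR) and NFKBIZ from 13.0 ± 7.07 to 56.6 ± 10.9 CPM (log2 change 2.11, SE 0.46, adjusted p = 0.017 by edgeR). TNF missed the threshold without PEO1 replicate 2 (adjusted p = 0.091 by edgeR) and NFKBIZ without PEO1 replicate 1 (adjusted p = 0.10 by edgeR). The 2 that fell were JUNB and JUND, another AP-1 subunit, named after its values were seen (adjusted p = 0.038 by edgeR, and 0.35 without PEO1 replicate 2). The JUND call also ended with limma-voom (adjusted p = 0.053) and without ABTr1 replicate 1, ABTr2 replicate 1 or either ABTr3 library.

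Of 10 decay and stability factors of AU-rich cytokine transcripts, 0 rose and 2 fell (median -0.15), beside 7.17% and 8.79% of all genes. With the block 1 rose and 4 fell, beside 16.3% and 18.2%. The 2 were the decay proteins ZFP36, at 108 ± 10.6 and 29.3 ± 11.9 CPM (log2 change -1.99, SE 0.48, adjusted p = 0.024 by edgeR), and ZFP36L2, at 228 ± 161 and 58.1 ± 14.4 CPM (4.01-fold lower, adjusted p = 0.0099 by edgeR). ZFP36L2 was at -1.04 without PEO1 replicate 1 (adjusted p = 0.16 by edgeR), and ZFP36 missed the threshold without either parental library or ABTr1 replicate 2 (edgeR adjusted p up to 0.14). Of 5 genes of receptor shedding, which releases soluble IL6R, 0 passed in either direction (median 0.36), beside 16% of all genes.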

How the data were processed

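RNA of 10 libraries, 2 per group, was sequenced after poly(A) selection with a kit that does not mark strand, per the labels' protocols. The authors aligned reads to hg19 with TopHat2 2.0.14 and counted them per gene with featureCounts 1.4.6 of Subread, per the submitters' processing notes, and the deposited values are raw counts. Settings for strand and multiple matches are not given in the sources used here. Exons of 0 of the 10 genes shared bases with another gene of the table. The design text speaks of 15 samples in several experiments, where 10 libraries were given. The descriptions number the clones otherwise than the titles, whose names are used for the 10 libraries.

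The 10 genes, the 13 gene lists (150 genes, 121 tested) and the tests were chosen with earlier results of these data known. Genes kept by edgeR's filterByExpr (16490) were fitted with TMM factors and quasi-likelihood tests in edgeR 4.0.16, with 1 mean for each group, leaving 5 residual degrees of freedom. P-values were adjusted by Benjamini-Hochberg across the tested genes (threshold 0.05), and a log2 change is the fitted log2 fold change. CPM are TMM-scaled, and CPM per kb uses the length deposited with the counts. A ± is the SD over 2 parental libraries or 4 clone means, and intervals are 95%. Named in any case were the 10 genes and IL6ST, IL11RA, OSM, CSF1R, CSF2RA, CSF2RB, CSF3R, IL34, JAK1, STAT3 and SOCS3, with up to 4 passing genes of each list by smallest adjusted p, and the 3 tested genes of highest r with each of the 10, of which some are not printed. A further gene of the rule is not reported here.

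Deviations of libraries with the same replicate number had r of 0.37 to 0.83 over the 10 group pairs, so every pair was above 0.1 and the block fit (4 residual degrees of freedom) was run beside each comparison. Its biological coefficient of variation was 0.234, beside 0.368 with no block. Other alternatives were DESeq2 1.42.0, limma-voom (limma 3.58.1), fits of just the 2 groups compared, leaving out each library, and no filter. In a further fit the clone was the unit, with the libraries of each clone summed and the 4 clones taken as 1 group. The 4 clone comparisons share the parental libraries. The fits were tested on simulated counts with the same spread for all genes, equal changes in all 4 clones and no replicate effect. That test does not cover genes near 0 reads, changes in single clones or libraries that deviate together. Figures were drawn with matplotlib 3.10.9 (Python 3.11.15), and models ran in R 4.3.3. Promoter sequences are RefSeq's and no hg19 coordinate was converted.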

Additional observations from a re-analysis of the deposited data

Results flagged for a closer look

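LIFR stood above parental cells in both ABTr1 libraries and below them in both ABTr3 and both ABTr4 libraries. The parental pair was close, at 39.5 and 39.4 CPM, so small differences were enough for this in ABTr1 and ABTr4. Their LIFR log2 changes were 0.11 and -0.17 (edgeR adjusted p = 0.80 and 0.72), beside -1.47 in ABTr3 (edgeR adjusted p = 0.014). The test of differences among clones gave an edgeR adjusted p of 0.503, and 0.0291 with the replicate block. IL6 stood above parental cells in both ABTr3 libraries and below them in both ABTr1 libraries (edgeR adjusted p = 0.633, and 0.0770 with the block). LIF stood above in both ABTr3 libraries and below in both ABTr4 libraries (edgeR adjusted p = 0.985, and 0.615 with the block). Its parental pair was also close, at 48.0 and 49.2 CPM. The LIF log2 changes were 0.44 in ABTr3 and -0.13 in ABTr4 (edgeR adjusted p = 0.59 and 0.89). The share of all genes with clones on both sides of parental cells was not computed.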

How the results depend on the processing

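In the mean of the clones, 2 genes passed, and the replicate block gave 5. CLCF1 and CSF2 kept their direction and their side of the threshold in all 15 alternatives of that comparison, in which 2 to 3 genes passed with 1 library left out. Against parental cells, the block gave 4 genes in ABTr2, 7 in ABTr3 and 4 in ABTr4, and DESeq2 gave 4 in ABTr2. Fits of only the 2 compared groups gave 0 in ABTr2, 2 in ABTr3, where LIFR no longer passed, and 1 in ABTr4. Of all tested genes, these fits called 78 of 15648 in ABTr2, 659 of 15755 in ABTr3 and 447 of 15639 in ABTr4. Leaving out a library leaves 1 group with 1 library. With a library of a clone left out, fewer of all genes passed in the comparison of that clone with parental cells. With 1 library left out the counts were 0 to 2 in ABTr1 and in ABTr2, 0 to 4 in ABTr3 and 2 to 3 in ABTr4. Among clones DESeq2 gave 2 and the block 1, and 0 to 0 with 1 library left out; for each clone against the other 3, DESeq2 gave 2, the block 1, and 0 to 0 with 1 library left out. Log2 fold changes of IL6, LIF, LIFR, OSMR and CSF1 turned sign. For IL6 the value became 0.48 when the summed libraries of each clone were the units. That fit takes the clones as 1 group and does not average their log2 changes, as the main comparison does. In the mean, the IL6 value was 0.54 without PEO1 replicate 1 and 0.07 without replicate 2 of ABTr2 or replicate 1 of ABTr4. Its range was -0.51 to 0.54 over libraries left out. Over the same omissions, LIF ran from -0.050 to 0.25 in the mean, -0.61 to 0.61 in ABTr1 and -0.35 to 0.43 in ABTr2. LIFR in ABTr2 ran from -0.19 to 0.24 and was -0.00051 with no filter. OSMR ran from -0.088 to 0.58 in ABTr1 and from -0.50 to 0.17 in ABTr3. CSF1 ran from -2.03 to 0.28 in the mean, -1.86 to 0.54 in ABTr1, -1.70 to 0.86 in ABTr2 and -2.04 to 0.30 in ABTr4, and PEO1 replicate 2 was the library whose omission gave these 4 positive values. The cause was not tested. Of the values of single genes under alternatives, 688 kept direction and side, 27 newly passed, 18 no longer passed and 16 reversed. With 3 counts worth up to 0.145 CPM, parental CSF2 and CSF3 are known only as near 0.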
